A study of Homo sapiens with 18 samples.

Results

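The genes described here are 5 G1 cyclins, CCND1, CCND2, CCND3, CCNE1 and CCNE2, and 5 inhibitors of cyclin-dependent kinases (CDKs), CDKN1A, CDKN1B, CDKN1C, CDKN2A and CDKN2B. They were taken by symbol and make up 10 of the 58381 rows in each of 3 deposited count tables. RNA sequencing measured them in TC-32, TC-71 and A673, established lines of Ewing sarcoma, a cancer that arises in bone or soft tissue and is driven by the fusion EWSR1::FLI1. In each line, 3 libraries came from cells transfected with a negative control siRNA (siNeg) and 3 from cells transfected with an siRNA to FLI1 (siFLI1), each at 20 nM, which makes 6 groups and 18 libraries. TC-32 and TC-71 were grown in RPMI medium and A673 in DMEM, so the medium and the line cannot be told apart. A time of 48 h stands in the column names for TC-32 and TC-71 only, and the line of these 12 libraries is known from the name of their table. The series text also mentions ES-5838 cells and an siRNA to ERG, which were not analysed here. The labels do not say whether replicates were separate cultures, so the p-values measure the spread between these libraries, which may be technical.

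As background, D cyclins join CDK4 and CDK6, and E cyclins join CDK2, to phosphorylate the retinoblastoma protein and release E2F transcription factors, which carries a cell from G1 into DNA replication. The CIP/KIP inhibitors p21 (CDKN1A), p27 (CDKN1B) and p57 (CDKN1C) bind cyclin-CDK complexes, whereas the INK4 inhibitors p16 (CDKN2A) and p15 (CDKN2B) bind CDK4 and CDK6 themselves. CDKN2A, which also encodes ARF, and CDKN2B are neighbours on the short arm of chromosome 9, a segment lost in a share of Ewing sarcomas and in many cancer cell lines.

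FLI1 belongs to the ETS family of transcription factors, whose binding sites have the core GGAA. The RefSeq promoter table (GRCh38.p14; 250 bases before to 50 after each gene start) held 6 of the 10 genes. Shown here are 3 of these promoters, those of the inhibitor that rose in every line (CDKN1A), of the gene with the largest change (CDKN2B) and of a cyclin that fell in one line and rose in another (CCNE1). CDKN1A lies on the plus strand, and its promoter spans chr6:36678464-36678763. CDKN2B lies on the minus strand, with its promoter at chr9:22009256-22009555. The CCNE1 promoter is on the plus strand at chr19:29811741-29812040. Each is written 5′ to 3′ on the strand of the gene, and capitals mark GGAA or its reverse complement TTCC.
CDKN1A: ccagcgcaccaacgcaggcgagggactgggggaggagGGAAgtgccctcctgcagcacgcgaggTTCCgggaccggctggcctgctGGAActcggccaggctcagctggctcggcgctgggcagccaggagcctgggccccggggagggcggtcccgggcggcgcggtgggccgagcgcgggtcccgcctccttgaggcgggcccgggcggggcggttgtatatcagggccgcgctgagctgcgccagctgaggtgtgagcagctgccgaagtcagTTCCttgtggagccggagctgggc
CDKN2B: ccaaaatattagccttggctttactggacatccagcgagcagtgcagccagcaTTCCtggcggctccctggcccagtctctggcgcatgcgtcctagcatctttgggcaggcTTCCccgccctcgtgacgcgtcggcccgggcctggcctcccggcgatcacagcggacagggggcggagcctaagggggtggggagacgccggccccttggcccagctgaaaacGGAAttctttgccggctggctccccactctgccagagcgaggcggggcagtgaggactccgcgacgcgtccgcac
CCNE1: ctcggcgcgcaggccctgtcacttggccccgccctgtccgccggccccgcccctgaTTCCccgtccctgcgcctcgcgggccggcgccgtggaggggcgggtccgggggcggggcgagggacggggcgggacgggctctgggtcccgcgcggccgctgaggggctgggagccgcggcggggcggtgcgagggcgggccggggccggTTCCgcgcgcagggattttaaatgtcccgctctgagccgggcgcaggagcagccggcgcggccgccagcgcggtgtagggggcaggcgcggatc
The CDKN1A promoter held 4 such cores, and 46% of the 35116 promoters of this length in the table held at least as many. CDKN2B had 3, as many as or fewer than 66% of promoters, and CCNE1 had 2, as many as or fewer than 83.8%. Of the other member promoters read, CDKN1B held 3 cores, the 2 starts of CDKN2A held 4 and 3, and the 3 starts of CCND3 held between 2 and 6. The median promoter held 3, and 95.5% held at least 1, so none of the 3 printed windows stood apart in this count. A match is a description of the letters and not a bound site.

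FLI1, the target, was lower in every siFLI1 library than in every siNeg library of its line. Reads from the FLI1 end of the fusion transcript fall in this row. In TC-32, FLI1 stood at 45.3, 47.7 and 42.8 CPM (the usual depth-scaled count, here with TMM factors) with siNeg and at 21.7, 22 and 22.6 with siFLI1. TC-71 had 52.0, 52.8 and 48 CPM against 17.2, 17.7 and 19.9, and A673 had 76.5, 76.8 and 75.4 CPM against 18.3, 17.9 and 17.6. TC-32, TC-71 and A673 had log2 fold changes of -1.03, -1.47 and -2.09, respectively, so FLI1 fell least in TC-32. The A673 libraries were the deepest, at 114564479 to 120993595 total counts each, beside 24102487 to 33669271 in TC-32 and 19685354 to 37234528 in TC-71. Counts were read in all 8 Ewing sarcoma markers in TC-32 and A673 and in 7 of 8 in TC-71, where CD99 was listed at 0. Only the TC-71 counts are credited to Subread. Whether CD99 was absent there or its reads were not counted cannot be told from these counts. The summed levels of 3 haematopoietic, 3 endothelial and 3 epithelial markers stayed at or below 0.191, 2.89 and 6.33 CPM in any library, with CD3E at 0 in TC-32 and A673, and their part in the results was not tested. All 12 genes of a proliferation list (MKI67, TOP2A, PCNA, the 6 MCM genes of the list, CCNB1, CDK1 and AURKB) fell in each line, with medians (log2) of -3.05, -1.83 and -0.82 for TC-32, TC-71 and A673. Of all genes tested, 40.1%, 35% and 35.4% were lower in these lines at an adjusted p under 0.05 (edgeR), and 19% of 14233 in all 3. The list was written with results of these data known and is no independent evidence of its direction. The fall of these 12 genes came with siFLI1 in every line, whether a member described below rose, fell or did not change. Its part in each result was not tested. In such bulk libraries, fewer cells with a transcript and less of it per cell cannot be told apart.

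Of the 10 genes, CCND1 fell and CDKN1A rose in all 3 lines, and most of the others moved in one line and not, or the other way, in another. The threshold for a call was an adjusted p under 0.05 in edgeR's quasi-likelihood test, with adjustment over every gene tested in the line. In TC-32, 9 of the 10 were tested, 4 rose and 4 fell, and 8 had no overlap between siFLI1 and siNeg libraries. That has to be read against all 16227 genes tested there, of which 81.4% were called, 41.3% higher and 40.1% lower, and 82.6% had no overlap. In TC-71 all 10 were tested, 4 rose, 2 fell and 6 had no overlap. CDKN2A and CDKN2B, among the 4 and among the 6, passed the count filter only through their siFLI1 libraries. The background there was 71.9% called of 17085 genes, 36.8% higher and 35% lower, with 73.8% without overlap. In A673, 7 were tested, 3 rose, 3 fell and 6 had no overlap, against a background of 71% called of 18444 genes, 35.6% higher and 35.4% lower, and 73.6% without overlap. For TC-32, TC-71 and A673, the members tested had median log2 fold changes of 0.16, 0.06 and 0.04, beside 0.02, 0.02 and -0.01 over all genes. A share of calls this near the background says nothing particular about the 10 genes, so the sizes and directions of single genes carry the description below.

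**Figure D1:**
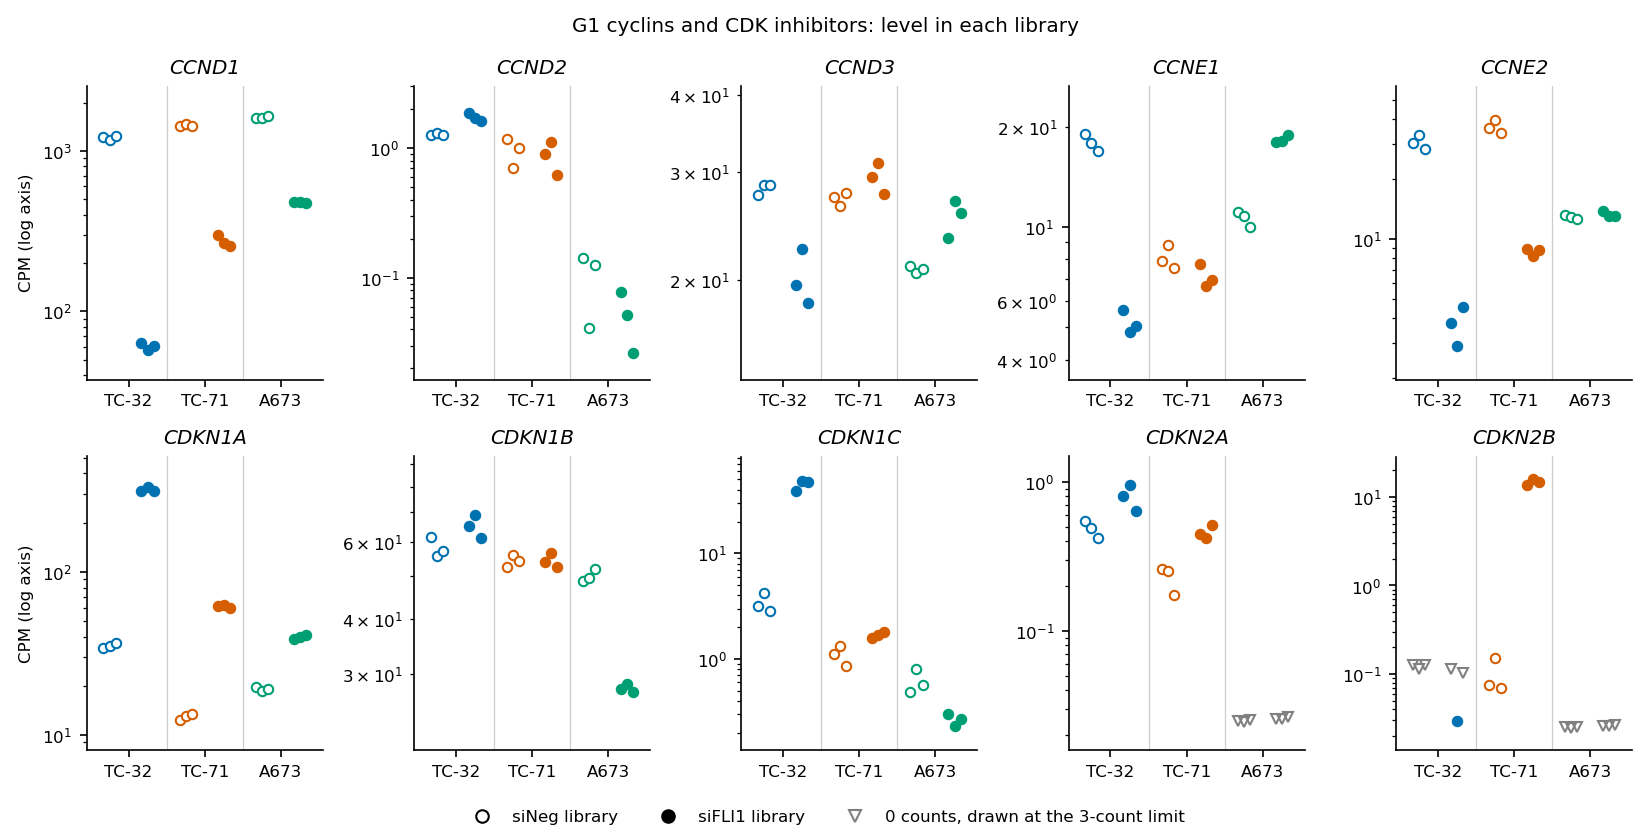
Level of each of the 10 genes in each of the 18 libraries, in CPM on a log axis, with open circles for siNeg and filled circles for siFLI1; triangles mark libraries with 0 counts, drawn at the 3-count limit. CCND1 falls and CDKN1A rises in all 3 lines without overlap, and CDKN2B has more than 3 counts only in the 3 siFLI1 libraries of TC-71.

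CCND1, which encodes cyclin D1, was by far the most abundant of the 3 D cyclins and fell in every line. In TC-32 it stood at 1220, 1172 and 1244 CPM with siNeg and at 63.2, 57.4 and 61.0 with siFLI1. TC-71 had 1430, 1464 and 1418 CPM against 299, 267 and 257, and A673 had 1604, 1599 and 1649 CPM against 477, 477 and 470. No siFLI1 library reached a siNeg library of its line, and the levels left after siFLI1 were lowest in TC-32 and highest in A673. Levels are set side by side across lines only as a description, since each line has its own table and the TC-71 table names another counting program. The fall was 20.0-fold in TC-32, with a log2 change of -4.32 (SE 0.0470; edgeR adjusted p = 3.82e-28). It was 5.25-fold in TC-71, with -2.39 (SE 0.0480; edgeR adjusted p = 1.61e-25), and 3.41-fold in A673, with -1.77 (SE 0.0326; edgeR adjusted p = 7.25e-17). Counted from the most negative log2 change, CCND1 ranked 45th of 16227 genes in TC-32, 160th of 17085 in TC-71 and 772nd of 18444 in A673.

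The size of the CCND1 fall differed between every pair of lines. Each line has its own count table, so line and table cannot be told apart in this or any later difference between lines. On the log2 scale, the change was 2.53 more negative in TC-32 than in A673 (difference -2.53, SE 0.0611; edgeR interaction test, adjusted p = 3.31e-27). TC-32 also exceeded TC-71 (difference -1.94, SE 0.0615; edgeR adjusted p = 1.18e-23), and A673 fell less than TC-71 (difference 0.59, SE 0.0585; edgeR adjusted p = 1.63e-10). FLI1 itself fell more in A673 than in TC-32, so the order of the lines by the fall of CCND1 was the reverse of their order by the fall of the FLI1 row. Of all 19610 genes in these tests, 62.1% passed for TC-32 against A673, 53.6% for TC-32 against TC-71 and 51.6% for A673 against TC-71. CCND1 lies on chromosome 11 from 69641156 to 69654474 on the plus strand (GENCODE 44, GRCh38), and 10.4% of its exon bases also belong to LTO1 on the other strand. LTO1 held 30.1 ± 1.27 CPM in siNeg TC-32 and 23.1 ± 0.963 with siFLI1 (SD, n = 3), far below CCND1.

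CCND3, the cyclin D3 gene, fell in TC-32 and rose in A673. It stood at 27.5, 28.6 and 28.5 CPM with siNeg in TC-32 and at 19.6, 22.4 and 18.3 with siFLI1, and these groups did not overlap. In A673 it stood at 21, 20.5 and 20.8 CPM against 23.4, 26.9 and 25.7, without overlap in the opposite direction. TC-71 had 27.3, 26.4 and 27.7 CPM against 29.4, 31.0 and 27.6, where the groups overlapped. The log2 changes were -0.48 in TC-32 (SE 0.0751; edgeR adjusted p = 2.53e-06), 0.28 in A673 (SE 0.0536; edgeR adjusted p = 0.000183) and 0.11 in TC-71 (SE 0.0671; edgeR adjusted p = 0.150). TC-32 differed from A673 by -0.74 (SE 0.0922; edgeR adjusted p = 1.18e-08) and from TC-71 by -0.60 (SE 0.0989; edgeR adjusted p = 3.41e-06). A difference between A673 and TC-71 did not pass the test (0.14, SE 0.0907; edgeR adjusted p = 0.192). CCND3 spans 41934934 to 42050357 on chromosome 6.

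CCND2, the cyclin D2 gene, was barely detected. In TC-32 it had 30, 35 and 30 counts with siNeg and 49, 58 and 48 with siFLI1, a log2 change of 0.44 (SE 0.224) that did not pass the test (edgeR adjusted p = 0.0731) although the groups did not overlap. TC-71 had 32, 14 and 29 counts against 22, 29 and 23, with overlapping CPM and a log2 change of -0.21 (SE 0.301; edgeR adjusted p = 0.544). A673 had 17, 5 and 15 counts against 9, 6 and 3, in the deepest libraries of the study. It was below the count filter there and was not tested in that line alone. Over all 18 libraries its log2 change was 1.43 more positive in TC-32 than in A673 (SE 0.542; edgeR adjusted p = 0.0199), and this call was lost without A673 siNeg replicate 1 (1.13), A673 siNeg replicate 3 (1.26) or A673 siFLI1 replicate 3 (1.11). Over all alternatives its edgeR, DESeq2 or limma-voom adjusted p ran from 0.00248 to 0.0977. CCND2 spans 4269771 to 4305353 on chromosome 12.

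Levels of different genes were compared per length, as CPM per kilobase of GENCODE 44 exon. By that measure CCND1 made up 98.1% ± 0.0801 (SD, n = 3) of the D cyclin sum in TC-32 with siNeg, beside 98.4% ± 0.0714 in TC-71 and 98.9% ± 0.0197 in A673. Among 57799 genes it ranked 102nd (TC-32), 65th (TC-71) and 49th (A673). With siFLI1 the TC-32, TC-71 and A673 libraries gave it shares of 77.4% ± 2.46, 91.7% ± 0.658 and 95.8% ± 0.292, respectively. CCND3 held nearly all of the rest, with 1.89%, 1.53% and 1.05% of the sum for TC-32, TC-71 and A673 under siNeg and 21.3%, 8.13% and 4.22% under siFLI1. The D cyclin sum went from 260 ± 7.64 to 16.4 ± 0.426 CPM per kilobase in TC-32, which is 15.8-fold lower. It was 4.89-fold lower in TC-71 (307 ± 4.87 to 62.8 ± 4.77) and 3.30-fold lower in A673 (343 ± 5.82 to 104 ± 0.864). CCND1 thus remained the main D cyclin transcript in every library, TC-32 with siFLI1 included.

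**Figure D2:**
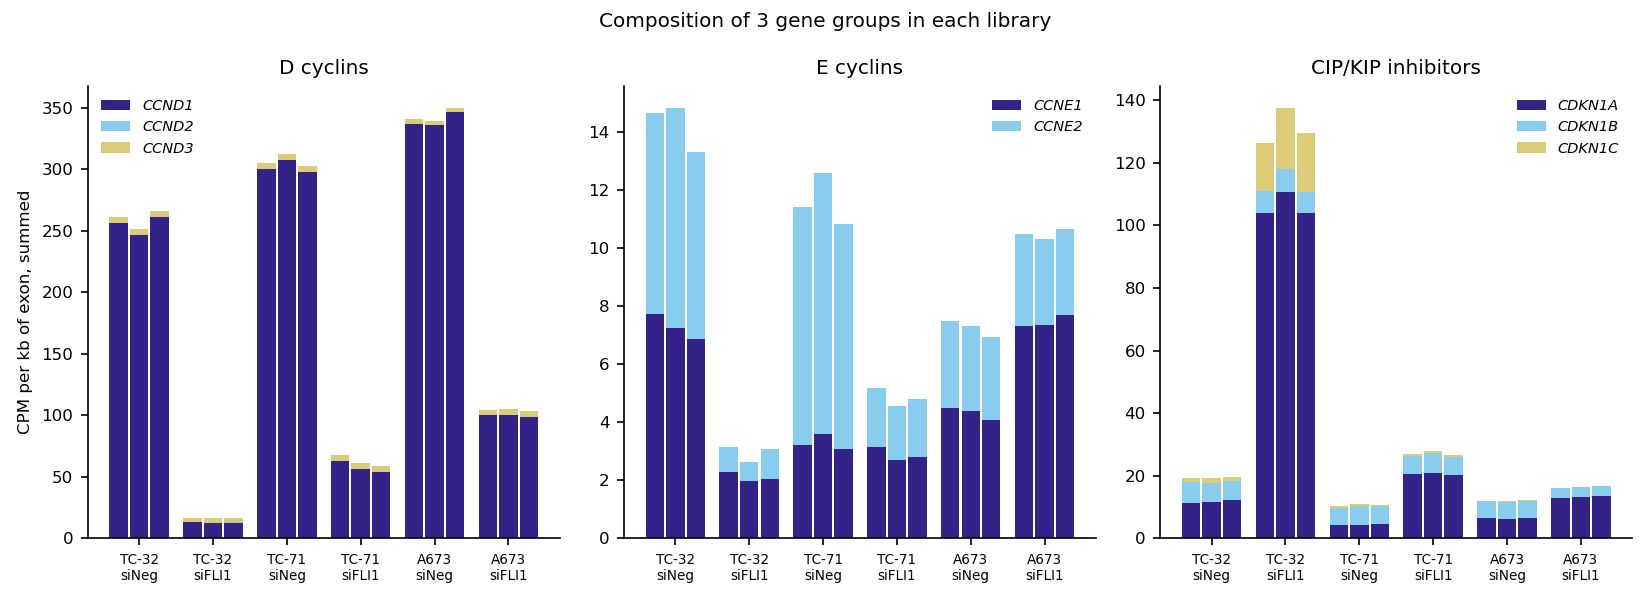
Stacked levels of the D cyclins, E cyclins and CIP/KIP inhibitors in each library, in CPM per kilobase of exon (each panel has its own axis from 0; 3 bars per group are the 3 libraries). The D cyclin bars are nearly all CCND1, the E cyclin bars shrink in TC-32 and TC-71 and grow in A673, and the inhibitor bars grow most in TC-32.

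The E cyclins went different ways in the 3 lines. CCNE2, one of the 2 E cyclin genes, fell in TC-32 and TC-71 and did not pass the test in A673. It stood at 30.4, 33.4 and 28.4 CPM with siNeg in TC-32 and at 3.79, 2.91 and 4.57 with siFLI1. TC-71 had 36.1, 39.6 and 34.1 CPM against 8.92, 8.22 and 8.78, while A673 had 13.2, 12.9 and 12.7 CPM against 13.9, 13.0 and 13.0. The groups were far apart in TC-32 and TC-71 and overlapped in A673, whose siNeg level was the lowest of the lines. The fall was 8.25-fold in TC-32 (log2 change -3.04, SE 0.113; edgeR adjusted p = 1.19e-16) and 4.22-fold in TC-71 (-2.08, SE 0.0799; edgeR adjusted p = 8.12e-20). A673 had a log2 change of 0.04 (SE 0.0532; edgeR adjusted p = 0.477), which was -0.06 with scaling to library size alone. Each pair of lines differed: -3.06 for TC-32 against A673 (SE 0.13; edgeR adjusted p = 6.16e-21), -0.98 for TC-32 against TC-71 (SE 0.140; adjusted p = 2.81e-07) and 2.09 for A673 against TC-71 (SE 0.113; adjusted p = 3.37e-17). CCNE2 lies on chromosome 8 from 94879770 to 94896678, and 37.1% of its exon bases are shared with opposite-strand genes, chiefly INTS8, a subunit of the Integrator complex. Without the strand setting of the counting, reads of CCNE2 and INTS8 in those bases cannot be told apart. INTS8 itself fell in all 3 lines, and TC-32, TC-71 and A673 had log2 changes of -0.76, -0.27 and -0.44.

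CCNE1, the other E cyclin gene, fell in TC-32 and rose in A673. In TC-32 it stood at 19.1, 17.9 and 16.9 CPM with siNeg and at 5.63, 4.84 and 5.04 with siFLI1. A673 went the other way, from 11.1, 10.8 and 10.0 CPM to 18, 18.1 and 18.9, and TC-71 had 7.91, 8.82 and 7.56 CPM against 7.73, 6.66 and 6.92. The groups were apart in TC-32 and in A673 and overlapped in TC-71. The log2 change was -1.80 in TC-32 (SE 0.0963; edgeR adjusted p = 1.03e-14), a 3.48-fold fall, and 0.79 in A673 (SE 0.0553; edgeR adjusted p = 2.06e-09), a 1.72-fold rise. In TC-71 it was -0.18 (SE 0.108; edgeR adjusted p = 0.128). TC-32 differed from A673 by -2.56 (SE 0.111; edgeR adjusted p = 3.31e-20) and from TC-71 by -1.62 (SE 0.132; edgeR adjusted p = 1.19e-12), and A673 differed from TC-71 by 0.94 (SE 0.116; edgeR adjusted p = 1.88e-08). CCNE1 lies on chromosome 19 from 29811991 to 29824312, and none of its exon bases is shared with another gene in GENCODE 44.

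Per length, the E cyclin sum went from 14.3 ± 0.830 to 2.96 ± 0.285 CPM per kilobase in TC-32 (4.83-fold lower) and from 11.6 ± 0.894 to 4.85 ± 0.301 in TC-71 (2.39-fold lower). In A673 it went up 1.44-fold, from 7.26 ± 0.283 to 10.5 ± 0.168 (SD, n = 3). With siNeg, CCNE1 made up 51%, 28.3% and 59.5% of this sum for TC-32, TC-71 and A673, and 71.3%, 59.5% and 71.1% with siFLI1. With siNeg, CCNE2 was thus the larger E cyclin transcript in all 3 libraries of TC-71 and in none of A673, and in TC-32 it was the larger in 1 of 3. With siFLI1, the mean share of CCNE1 was the larger in each line.

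CDKN1A, which encodes p21, rose in every line. In TC-32 it stood at 34.0, 34.9 and 36.7 CPM with siNeg and at 311, 331 and 312 with siFLI1. TC-71 had 12.3, 13.0 and 13.5 CPM against 61.8, 62.9 and 60.3, and A673 had 19.6, 18.6 and 19.0 CPM against 39.0, 39.6 and 40.8. The groups did not overlap in any line, and with siFLI1 the TC-32 libraries stood several-fold above those of the other lines. The rise was 9.04-fold in TC-32 (log2 change 3.18, SE 0.0504; edgeR adjusted p = 4.30e-25), 4.76-fold in TC-71 (2.25, SE 0.0657; edgeR adjusted p = 1.04e-22) and 2.09-fold in A673 (1.06, SE 0.0446; edgeR adjusted p = 2.59e-12). The response differed between lines, by 2.14 for TC-32 against A673 (SE 0.0647; edgeR adjusted p = 1.53e-24), by 0.92 for TC-32 against TC-71 (SE 0.0752; adjusted p = 1.38e-12) and by -1.22 for A673 against TC-71 (SE 0.0722; adjusted p = 3.43e-16). CDKN1A is on chromosome 6 from 36676460 to 36687337, and 4.87% of its exon bases are shared with DINOL on the other strand. Of the 14233 genes tested in all 3 lines, 18.9% rose and 19% fell in all 3, so a shared direction is common in these data.

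The fall of CCND1 and the rise of CDKN1A together inverted the balance of the pair in TC-32 only. The ratio of CCND1 to CDKN1A per length was 21.7 ± 0.778 in siNeg TC-32 and 0.120 ± 0.00984 with siFLI1 (SD, n = 3). The A673 values were 53.4 ± 1.68 with siNeg and 7.51 ± 0.229 with siFLI1, and those of TC-71 were 70.0 ± 3.40 and 2.80 ± 0.217. In TC-32 each of the 3 siFLI1 libraries held more CDKN1A than CCND1 per length, and every library of TC-71 and A673 held less.

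CDKN1C, which encodes p57, was called in every line, higher in TC-32 and TC-71 and lower in A673. In TC-32 it stood at 3.18, 4.18 and 2.86 CPM with siNeg and at 38.5, 48.5 and 46.9 with siFLI1. TC-71 had 1.11, 1.32 and 0.867 CPM against 1.60, 1.68 and 1.80, and A673 had 0.491, 0.812 and 0.565 CPM against 0.300, 0.232 and 0.271. The groups were apart in each line, above the siNeg libraries in TC-32 and TC-71 and below them in A673. TC-32 showed a 13.0-fold rise (log2 change 3.70, SE 0.121; edgeR adjusted p = 3.60e-15), and A673 a 2.32-fold fall (-1.22, SE 0.239; edgeR adjusted p = 0.000263) at 27 to 99 counts per library. The rise in TC-71 (0.66, SE 0.234; edgeR adjusted p = 0.0134) rested on 25 to 67 counts per library. It was lost with DESeq2 (adjusted p = 0.0532) and, by edgeR, without siNeg replicate 3 (adjusted p = 0.0871) or siFLI1 replicate 3 (adjusted p = 0.0548), and ran from 0.00922 to 0.0871 over all alternatives. Differences between lines were 4.94 for TC-32 against A673 (SE 0.246; edgeR adjusted p = 2.07e-18), 3.03 for TC-32 against TC-71 (SE 0.298; adjusted p = 1.35e-10) and -1.91 for A673 against TC-71 (SE 0.320; adjusted p = 5.05e-06). CDKN1C spans 2883213 to 2885775 on chromosome 11. Of the 14233 genes, 13.7% were likewise called in all 3 lines in mixed directions.

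CDKN1B, which encodes p27, fell in A673, and a small rise in TC-32 passed the test and lost it when any of 3 libraries was left out. A673 went from 48.9, 49.5 and 52.1 CPM with siNeg to 27.7, 28.5 and 27.4 with siFLI1, and the groups did not overlap. TC-32 had 61.4, 55.8 and 57.2 CPM against 65.0, 68.8 and 61.1, and TC-71 had 52.4, 56 and 54.2 CPM against 53.9, 56.6 and 52.6. Both of these pairs of groups overlapped. In A673 the fall was 1.80-fold (log2 change -0.85, SE 0.0435; edgeR adjusted p = 3.48e-11). The log2 change of 0.16 in TC-32 (SE 0.0575; edgeR adjusted p = 0.0128) was no longer called without siNeg replicate 2 (adjusted p = 0.103), siNeg replicate 3 (adjusted p = 0.0534) or siFLI1 replicate 2 (adjusted p = 0.0767), and its adjusted p ran from 0.00236 to 0.103 over all alternatives. In TC-71 it was 0.01 (SE 0.0545; edgeR adjusted p = 0.938), with a sign that turned with the scaling. A673 differed from TC-32 (TC-32 minus A673, 1.04, SE 0.0711; edgeR adjusted p = 8.15e-15) and from TC-71 (A673 minus TC-71, -0.89, SE 0.0718; edgeR adjusted p = 1.18e-12). CDKN1B lies on chromosome 12 from 12685498 to 12722369. CCND3, CCNE1, CDKN1B and CDKN1C were called higher in at least 1 line and lower in another, as were 22.7% of the 14233 genes.

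Per length, the CIP/KIP sum went from 19.4 ± 0.166 to 131 ± 5.82 CPM per kilobase in TC-32, a 6.76-fold rise. TC-71 had a 2.56-fold rise (10.6 ± 0.358 to 27.1 ± 0.621) and A673 a 1.36-fold one (12 ± 0.157 to 16.4 ± 0.273; SD, n = 3). CDKN1A made up 60.5%, 40.7% and 52.9% of the sum in siNeg TC-32, TC-71 and A673, and 80.9%, 75.8% and 81.0% with siFLI1. CDKN1B was the larger transcript in siNeg TC-71, at 55.1%, and fell to 21.6% of the sum there. CDKN1C reached 13.7% with siFLI1 in TC-32 and stayed at or below 4.86% in every library of TC-71 and A673. These shares use GENCODE 44 exon lengths, in which CDKN1B is long (9255 bases), and would shift with other gene models.

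**Figure D3:**
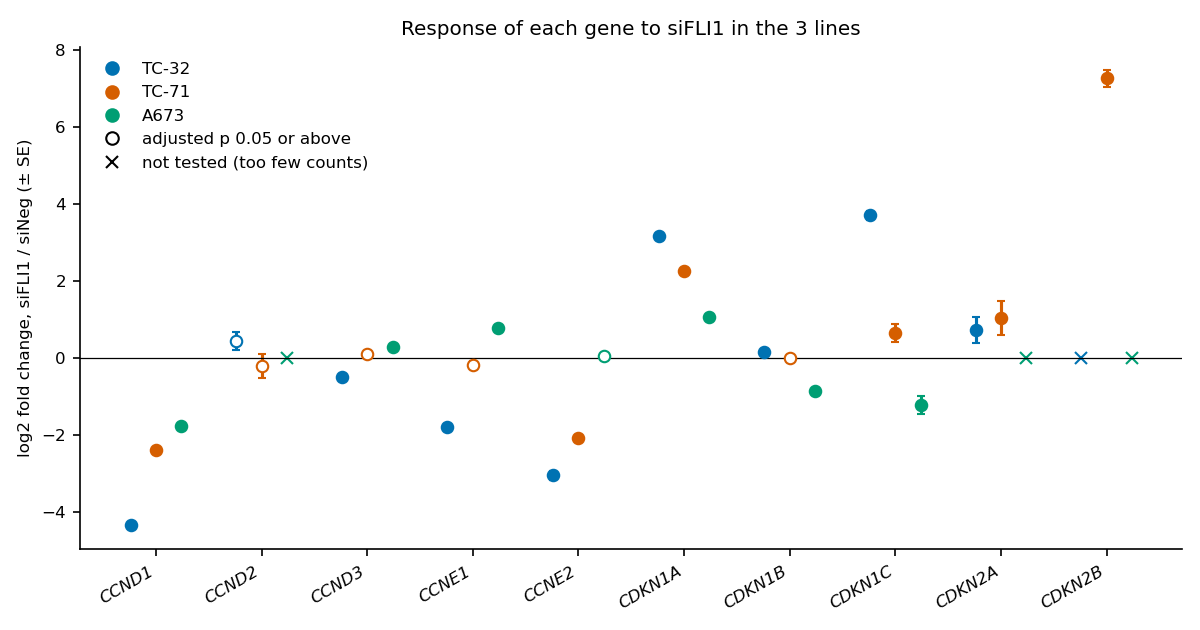
Log2 fold change of siFLI1 over siNeg (± SE) for each gene in TC-32, TC-71 and A673; open circles have an adjusted p of 0.05 or above, and crosses mark genes with too few counts to test. CCND1 is below 0 and CDKN1A above 0 in all 3 lines, and CDKN2B in TC-71 stands highest at 7.26.

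CDKN2B, which encodes p15, had the largest change of the 10 genes, in TC-71. That line had 2, 3 and 2 counts with siNeg and 338, 417 and 551 with siFLI1, or 0.0743, 0.152 and 0.0694 CPM against 13.8, 15.9 and 14.8. TC-32 had 0 counts in every library but siFLI1 replicate 2, which had 1, and A673 had 0 in all 6 libraries. A count of 0 allows up to 3 counts, which is between 0.0891 and 0.126 CPM in TC-32 and between 0.0246 and 0.0262 CPM in A673. The 3 siFLI1 libraries of TC-71 thus stood above every other library, and the 2 other lines could not be tested. The ratio of the summed counts, scaled for depth, was 161 with a 95% interval of 77.7 to 400 that covers counting error only. The edgeR log2 change was 7.26 (SE 0.223; adjusted p = 2.92e-22), which ranked 51st from the top among 17085 genes. CDKN2B passed the count filter in TC-71 only through its siFLI1 libraries, so it had to differ once tested, and the call supports nothing further. Whether the response differed between lines could not be judged, since the edgeR difference for TC-32 against TC-71 (adjusted p = 0.986) and for A673 against TC-71 (adjusted p = 0.999943) rested on groups at 0. The tools disagreed here. DESeq2 called both differences (-6.56, adjusted p = 0.000542, and -7.25, adjusted p = 0.000121). So did limma-voom (-6.82, adjusted p = 2.51e-08, and -7.06, adjusted p = 1.40e-08), from the same groups at 0. CDKN2B lies on chromosome 9 from 22002903 to 22009305 on the minus strand and shares no exon base with another gene in GENCODE 44.

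CDKN2A, which encodes p16 and ARF, was at the limit of detection in TC-32 and TC-71 and absent from the counts of A673. TC-32 had 13, 13 and 10 counts with siNeg and 21, 32 and 19 with siFLI1. TC-71 had 7, 5 and 5 counts against 11, 11 and 19, and A673 had 0 in all 6 libraries, again a limit of 0.0246 to 0.0262 CPM. The CPM did not overlap in TC-32 or TC-71, with the siFLI1 libraries higher in each. The scaled ratio of summed counts was 1.66 (95% interval 1.10 to 2.55) in TC-32 and 2.08 (1.15 to 3.90) in TC-71. By edgeR the log2 changes were 0.72 (SE 0.332; adjusted p = 0.0476) and 1.03 (SE 0.445; adjusted p = 0.0371), and the alternatives moved these p-values between 0.0362 and 0.206 in TC-32 and between 0.0357 and 0.147 in TC-71. Only 4 of 14 alternatives kept the call in TC-32, and 3 of 12 in TC-71, where the gene passed the count filter only through its siFLI1 libraries. Its siFLI1 libraries in TC-71 thus had to stand above its siNeg libraries once it was tested. The lack of overlap, the interval and the call in that line support nothing further. CDKN2A spans 21967752 to 21995301 on chromosome 9, and 15.3% of its exon bases are shared with the antisense transcript CDKN2B-AS1. Reads of CDKN2A and CDKN2B-AS1 in those bases cannot be told apart without knowing how strands were counted. In TC-32, CDKN2B-AS1 had 73 to 89 counts with siNeg and 131 to 145 with siFLI1. It had 25 to 43 against 31 to 45 in TC-71, with overlap, and 0 in every A673 library. The part of CDKN2B-AS1 reads in the CDKN2A counts was not tested.

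The neighbours of both genes on the short arm of chromosome 9 gave different gaps in the 3 lines, as the plot of this region shows. In siNeg A673, the 3 adjoining genes CDKN2A, CDKN2B-AS1 and CDKN2B were at 0, while MTAP on one side stood at 45.1 ± 1.76 CPM and DMRTA1 on the other at 0.611 ± 0.115 (SD, n = 3). In siNeg TC-32, MTAP, an enzyme gene of methionine salvage, held 8 to 17 counts and HACD4 and CDKN2B had 0, whereas CDKN2B-AS1 stood at 3.30 ± 0.497 CPM and KLHL9 at 34.1 ± 2.16. TC-71 kept MTAP at 10.1 ± 0.818 CPM and CDKN2B-AS1 at 1.29 ± 0.190, with HACD4 at 0 to 2 counts and DMRTA1 at 0. ELAVL2, a neuronal RNA-binding protein gene, had at most 3 counts in any library. Copy number was not measured here, so a deleted and a silent gene cannot be told apart where the count is 0. CDKN2B in TC-71 had 2 to 3 counts with siNeg and 338 to 551 with siFLI1.

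**Figure D4:**
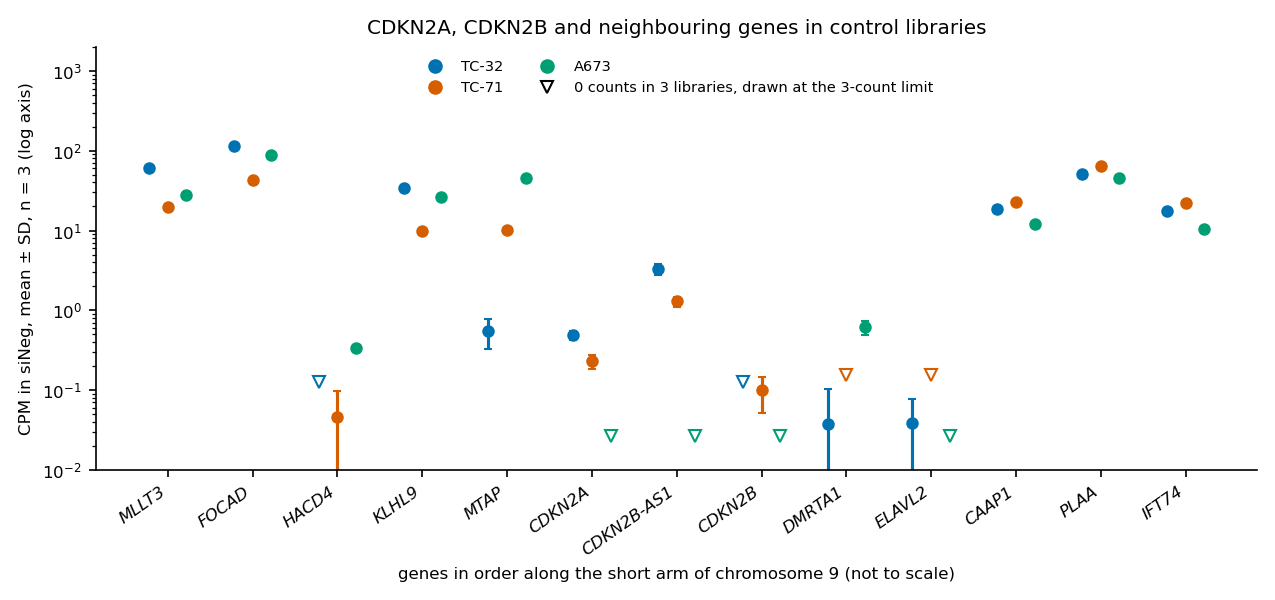
Mean level (± SD, n = 3) in siNeg libraries of CDKN2A, CDKN2B and 11 neighbours in their order along the short arm of chromosome 9, in CPM on a log axis (distances not to scale, triangles mark 0 counts in 3 libraries, and an error bar that reaches the bottom goes to 0 or below). A673 has 0 at CDKN2A, CDKN2B-AS1 and CDKN2B, and TC-32 is low at MTAP.

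With siFLI1, 2 of 7 neighbours tested rose and 5 fell in TC-32, 1 of 8 rose and 4 fell in TC-71, and 2 of 9 rose and 4 fell in A673, with medians of -0.64, -0.13 and -0.03. Over all genes tested, 81.4%, 71.9% and 71% were called, near the neighbours' shares in TC-71 (62.5%) and A673 (66.7%). In TC-32, all 7 were called. KLHL9, a substrate adaptor of a ubiquitin ligase, rose in all 3 lines (log2 changes 0.41, 0.44 and 0.21), and IFT74, a ciliary transport gene, fell in all 3 (-0.54, -0.38 and -0.56). CDKN2B-AS1, the antisense transcript that starts at the upstream end of CDKN2A and runs past CDKN2B, rose in TC-32 (0.53, SE 0.161; edgeR adjusted p = 0.00453), from 89, 73 and 81 counts to 143, 131 and 145. In TC-71, where CDKN2B rose, CDKN2B-AS1 had 30, 25 and 43 counts against 45, 31 and 39, with overlap and a log2 change of 0.03 (SE 0.255; edgeR adjusted p = 0.910). MTAP fell in TC-71 (-0.72; edgeR adjusted p = 5.27e-07) and in A673 (-0.29; edgeR adjusted p = 2.69e-05).

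The partners of these genes in G1 and at the start of DNA replication were described by a list of 20. In TC-32, 2 rose and 18 fell, with a median log2 change of -1.01. TC-71 had 2 higher, 14 lower and 4 not called, with a median of -0.75, and A673 had 6 higher, 12 lower and 2 not called, with a median of -0.49. Over all genes, 41.3% rose and 40.1% fell in TC-32, 36.8% rose and 35% fell in TC-71, and A673 had 35.6% higher and 35.4% lower, with medians of 0.02, 0.02 and -0.01. The list was written with results of these data known and is no independent evidence of its direction. The 11 genes that fell in every line were CDK2, CDKN2C, CDKN2D, CDKN3, RBL1, E2F1, E2F2, E2F3, CKS1B, CDC25A and CCNA2, and the 2 that rose in every line were CDK6 and FBXW7. Over all genes tested in the 3 lines, 19% fell and 18.9% rose in every line.

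E2F1 and E2F2 encode transcription factors that the retinoblastoma protein holds in check. E2F1 stood at 70.4 ± 3.67 CPM with siNeg in TC-32 and at 5.09 ± 0.687 with siFLI1 (SD, n = 3), with 103 ± 1.72 against 21.1 ± 3.05 for TC-71 and 98.8 ± 2.30 against 45.5 ± 1.44 for A673. Its log2 changes were -3.79, -2.30 and -1.12, and those of E2F2 were -4.18, -2.59 and -2.10, each without overlap and each largest in TC-32. CCNA2, the cyclin A2 gene, fell by 2.63, 1.78 and 0.97 on the log2 scale in the same order of lines, and CDK2, the partner of cyclin E, by 1.79, 1.53 and 0.56. RB1, which encodes the retinoblastoma protein, was called in TC-32 alone (-0.20; edgeR adjusted p = 0.0195), where its groups overlapped.

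The kinases that D cyclins bind did not move together. CDK6 rose in every line (log2 changes 1.58, 0.33 and 0.78 for TC-32, TC-71 and A673), whereas CDK4 fell in TC-32 (-0.84) and TC-71 (-0.24) and rose in A673 (0.17). In TC-32, CDK6 stood at 10.2, 10.9 and 8.71 CPM with siNeg and at 31.6, 29.1 and 28.5 with siFLI1. Per length CDK4 remained the larger of the pair in each line with siFLI1, at 42.9 CPM per kilobase against 2.43 for CDK6 in TC-32, 55.5 against 1.35 in TC-71 and 93.9 against 7.14 in A673. In GENCODE 44, 44.2% of CDK4 exon bases are shared with TSPAN31 on the other strand. Without the strand setting of the counting, reads of CDK4 and TSPAN31 in those bases cannot be told apart. CDK7 and CCNH, which with MNAT1 form the kinase that activates CDKs, fell in TC-32 (-0.49 and -0.90) and rose in A673 (0.79 and 0.11). The rise of CCNH was near the threshold (edgeR adjusted p = 0.0411), with siNeg libraries reaching 34.97 CPM and siFLI1 libraries starting at 35.06. Alternatives were not run for the partner genes. MNAT1 fell in TC-32 (-1.04) and was not called in A673 (-0.05; edgeR adjusted p = 0.443). The other INK4 inhibitors, CDKN2C and CDKN2D, fell in all 3 lines, by 0.82, 0.69 and 0.79 for CDKN2C and by 1.22, 0.81 and 1.14 for CDKN2D on the log2 scale. No difference between lines passed the test for CDKN2C (edgeR adjusted p from 0.128 to 0.976), with TC-32 minus A673 at -0.01 (SE 0.0794).

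SKP2 and FBXW7 encode the substrate receptors that send p27 and cyclin E, respectively, to degradation. SKP2 went from 124 ± 0.988 CPM with siNeg in A673 to 241 ± 7.81 with siFLI1 (SD, n = 3), a log2 change of 0.95 (SE 0.0366; edgeR adjusted p = 8.03e-13). TC-71 showed a fall, from 140, 142 and 137 CPM to 69.6, 70.5 and 73.2 (-0.97, SE 0.0465; edgeR adjusted p = 1.66e-17), and in TC-32 it fell by 0.21. The groups did not overlap in any line, and A673 differed from TC-71 by 1.89 (SE 0.0570; edgeR adjusted p = 4.18e-24). FBXW7 rose by small steps in all 3 lines, with log2 changes of 0.19, 0.42 and 0.20.

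**Figure D5:**
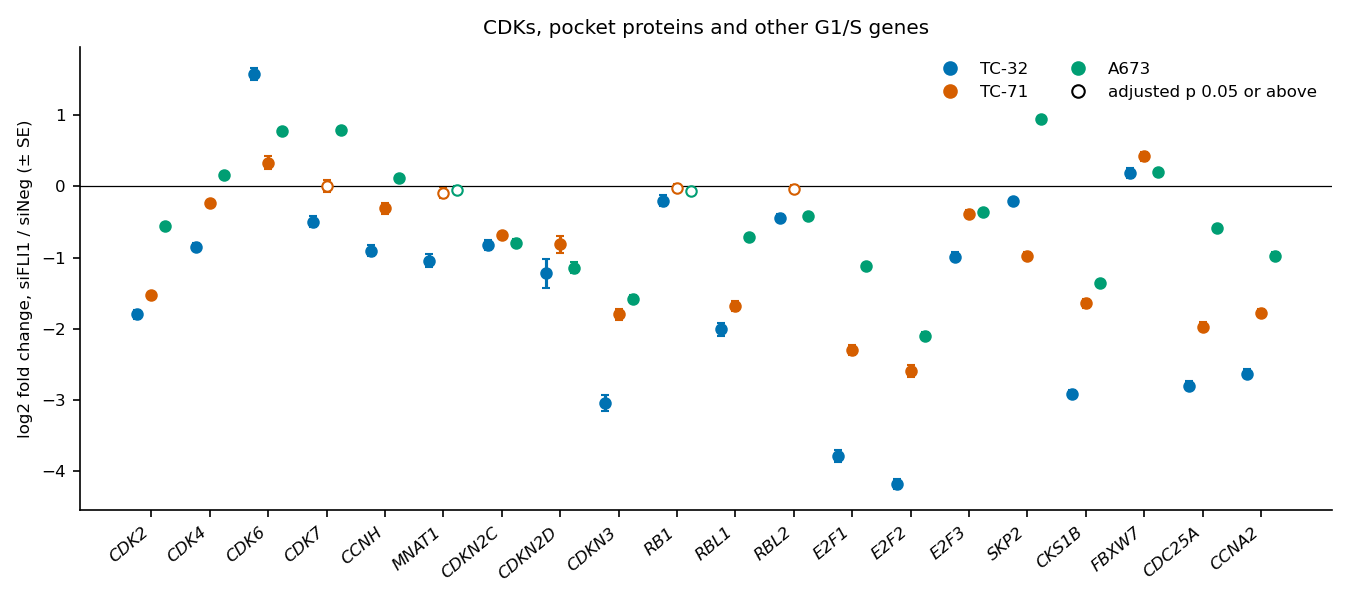
Log2 fold change of siFLI1 over siNeg (± SE) for 20 partner genes in TC-32, TC-71 and A673; open circles have an adjusted p of 0.05 or above. E2F1, E2F2, CDKN3 and CCNA2 fall in the order TC-32, TC-71, A673, CDK6 rises in each line, and SKP2 rises in A673 only.

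For the 3 genes called in every line, the genes with the most similar pattern were found by Pearson's r over the 18 libraries, on log2 CPM centred within each line and over 14233 genes. Nearest to CCND1 were MKI67 and KIF4A, each with r = 0.999, of which MKI67 encodes the proliferation antigen Ki-67. Nearest to CDKN1A were TCF7L2 and RHOB, each with r = 0.998, and nearest to CDKN1C were C14orf132 (r = 0.981) and CDH11 (r = 0.980). The libraries of a line share its knockdown, and its 2 groups mirror each other once centred. Apart from the spread of replicates, these values thus describe the fold changes of 3 lines rather than 18 independent points. On the log2 scale MKI67 fell by 3.13, 1.72 and 1.32 in the same order of lines as CCND1, which is TC-32 first and A673 last.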

How the data were processed

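Messenger RNA libraries were made with a stranded kit, per the labels' protocols. The authors deposited expected counts for A673 and TC-32, credited to RSEM in the table names. The counts deposited for TC-71 are credited to Subread. The submitters' processing notes name cutadapt 4.4, STAR 2.7.3, featureCounts, Subread 2.0.3, limma 3.38.3 and GRCh38, with no role or order. The annotation release and the strand setting are not given in the sources used here. Expected counts were rounded, and all library columns were used.

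The 3 lines were fitted separately with edgeR 4.0.16 in R 4.3.3 (filterByExpr by group, TMM, robust quasi-likelihood F-test, prior count 0.125), with Benjamini-Hochberg adjustment over all genes tested and a threshold of 0.05. Differences between lines came from interaction contrasts over 18 libraries. Every adjusted p is from edgeR unless another tool is named. Standard errors are of the log2 fold change, and CPM are TMM-scaled. Positions, exon lengths and overlaps came from GENCODE 44, which held 57799 of 58381 identifiers, read with Python 3.11.15. Alternatives changed the scaling (RLE factors, or library size alone), the count filter (none, or a mean of 10 counts), the tool (limma-voom from limma 3.58.1, or DESeq2 1.42.0), the rounding and the samples (a replicate block, each library left out, or 12 libraries per pair of lines). The fits were also run on simulated data in which far fewer genes changed than were called here, and no result rests on that run. A count of 0 was given a limit of 3 counts, and without molecular identifiers such limits and all intervals cover counting error only. The 10 genes, and the lists of 20 partners, 11 neighbours, 12 proliferation genes and the cell type markers, were chosen with earlier results of these data known. The rule for naming allowed FLI1, all members, partners and neighbours, from the proliferation list the 2 highest and 2 lowest of each line, and the 2 genes nearest in pattern. The whole proliferation list is named as contents only, with values for MKI67, which was nearest to CCND1. A further gene and a further list under this rule are not reported here. LTO1 and INTS8 were added after their overlap with members was seen. Same-numbered replicates of the 2 siRNAs correlated in their deviations at between -0.0784 and 0.0422, so the numbers were not taken to pair the samples.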

Additional observations from a re-analysis of the deposited data

Results flagged for a closer look

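The response to siFLI1 differed in at least 1 pair of lines for 8 of the 10 genes, by edgeR's interaction test at an adjusted p under 0.05. In these tests a line cannot be told apart from its count table, its medium or, for TC-71, its counting program. By pair, 8 were called for TC-32 against A673, 6 for TC-32 against TC-71 and 6 for A673 against TC-71. Over all genes tested, 62.1%, 53.6% and 51.6% were called in the same order of pairs. The share of all genes called in at least 1 pair was not computed, so the 8 of 10 has no like background. Differences are of log2 fold changes, the first line named minus the second.

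CCND1 fell more in TC-32 than in A673 (-2.53) and than in TC-71 (-1.94), and less in A673 than in TC-71 (0.59). CCND2 differed between TC-32 and A673 only (1.43), at 3 to 58 counts per library. CCND3 differed between TC-32 and A673 (-0.74), where it fell in the first and rose in the second, and between TC-32 and TC-71 (-0.60).

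CCNE1 differed in each pair, by -2.56 for TC-32 against A673, by -1.62 for TC-32 against TC-71 and by 0.94 for A673 against TC-71. CCNE2 did so too, by -3.06, -0.98 and 2.09 in the same order of pairs.

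Among the inhibitors, CDKN1A rose most in TC-32, by 2.14 more than in A673 and 0.92 more than in TC-71, and A673 against TC-71 gave -1.22. CDKN1B separated A673 from TC-32 (1.04 for TC-32 against A673) and from TC-71 (-0.89 for A673 against TC-71). CDKN1C had the widest gap among the differences called, 4.94 for TC-32 against A673, with 3.03 for TC-32 against TC-71 and -1.91 for A673 against TC-71.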

How the results depend on the processing

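Of 1383 recomputed values, 1330 kept their direction and their side of the threshold, or for counts stayed within 1.5 times. The calls of CCND1 and CDKN1A in each line held under every alternative run. The members called higher numbered 4 in TC-32 and between 2 and 4 with single libraries left out, and 4 in TC-71, with 2 by DESeq2 and between 2 and 3 with single libraries left out. The sign of CDKN1B in TC-71, 0.01 in the main analysis, turned to -0.0036 with RLE factors and with DESeq2, to -0.0064 with library size alone, to -0.00074 without the low-count filter, and to between -0.027 and 0.033 with single libraries left out. CCND2 in TC-71 ranged from -0.41 to 0.033 (the latter without siFLI1 replicate 3), and CCNE2 in A673 turned to -0.059 with library size alone; the cause was not tested.

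The replicate numbers were not taken to pair the samples. With the number as a replicate block, CDKN2A was no longer called in TC-32 (0.72; edgeR adjusted p = 0.0808) or in TC-71 (1.04; edgeR adjusted p = 0.0547). Single members' calls lost under some alternatives were those of CDKN2A in TC-32 and TC-71, CDKN1C in TC-71, CDKN1B in TC-32, and CCND2 for TC-32 against A673. CDKN1B for TC-32 against TC-71 (0.15; edgeR adjusted p = 0.0922) became a call with RLE factors (0.22), library size alone (0.21), the stricter count filter (0.17), DESeq2 (0.22) and without TC-32 siFLI1 replicate 3 (0.19), and CCND3 for A673 against TC-71 did so with only the 12 libraries compared (0.22; edgeR adjusted p = 0.0357). CDKN2B became a call with DESeq2 and with limma-voom for TC-32 against TC-71 (-6.56 and -6.82). It did so too for A673 against TC-71 (-7.25 and -7.06), with groups at 0 in each case.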
